A study of Gallus gallus with 6 samples.

Results

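The genes described here are 9 genes of glycogen metabolism, PYGL, PHKA1, PHKB, PHKG1, GBE1, UGP2, PGM1, PPP1R3A and PPP1R3C, taken from the table by symbol. All 9 were found among the 18239 genes of the deposited table. RNA sequencing had been done on soleus, a leg muscle, and pectoralis major, the breast muscle, of broiler chickens aged 180 days, with 3 libraries per muscle and no treatment named in the labels. Levels are given in FPKM, in which fragments are scaled by gene length and by library total. An order between genes therefore depends on the length used for each. Nothing in the labels states that each library is a different bird. The p-values therefore speak of the spread among these 6 libraries, which may be technical.

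Glycogen is the branched store of glucose in muscle. For synthesis, glucose 6-phosphate is turned into glucose 1-phosphate by phosphoglucomutase and then into UDP-glucose by UGP2, from which glycogen synthase lengthens chains on a glycogenin primer while GBE1 sets the branches. For breakdown, glycogen phosphorylase releases glucose 1-phosphate once it has been switched on by phosphorylase kinase, an enzyme built of regulatory alpha (PHKA1) and beta (PHKB) subunits, a catalytic gamma subunit (PHKG1) and calmodulin, which senses the calcium that triggers contraction. Protein phosphatase 1, held on glycogen by targeting subunits such as PPP1R3A and PPP1R3C, opposes this kinase and activates synthase. In mammals, fast glycolytic fibres lean on this store during bursts of activity. The muscle forms of phosphorylase (PYGM) and synthase (GYS1) were not found under these symbols and are not analysed here.

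Library totals, recovered from the deposited values, ranged from 38534335 to 39079981 fragments for soleus and from 36309597 to 37123092 for pectoralis major. The 9 genes had 471 (PYGL) to 367463 (PGM1) fragments per library. The labels name muscles and not fibre types. The summed level of 4 slow fibre genes (MYH7B, TNNI1, MYL2, MYL3) was 7856 to 11001 FPKM in soleus and 0.560 to 2.82 in pectoralis major, where MYL2 was listed at 0 in every library. The 5 fast fibre genes were all lower in soleus, with a sum of 16976 to 22191 against 53502 to 59837 FPKM. In soleus this sum still lay above that of the slow fibre genes. The lists hold different kinds of genes, however, and TNNT1 of the slow fibre list was not found by symbol. Of the myosin heavy chain genes listed, MYH7B averaged 558 FPKM in soleus and MYH1E 4.31. On the means MYH1E was 1119-fold and LDHA 15.4-fold lower in soleus, but TNNI2 2.61-fold, TNNT3 2.32-fold and MYL1 1.85-fold. Mitochondrially encoded genes took 31.4% to 38.0% of all FPKM in soleus and 13.1% to 15.8% in pectoralis major. Small differences changed with the scaling. The median log2 difference of all tested genes was 0.26 as deposited and -0.04 under median-ratio scaling, and 69.7% of all calls were higher in soleus as deposited against 41.7% under median-ratio scaling, 49.5% under quantile normalization and 81.4% with mitochondrially encoded genes out of the totals.

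Breakdown and synthesis genes did not move as one group. Of the 9 genes, 5 were lower in soleus, all at least 2-fold (PGM1, PHKB, PHKA1, PHKG1 and PPP1R3A), 2 were higher (PYGL and GBE1) and 2 did not pass the test (UGP2 and PPP1R3C). The test was limma on log2(FPKM + 1), two-sided, with Benjamini-Hochberg adjustment over all genes and a threshold of 0.05. Among all 9616 genes tested, 57.3% passed, 17.4% as lower and 40% as higher in soleus. A difference of at least 2-fold on this scale was called for 14.9% of them, with 5.5% lower and 9.44% higher. None of the 9 genes was at least 2-fold higher in this test. GBE1 came nearest, with a log2 difference of 0.98 that ranged from 0.63 to 1.37 over all settings. The levels of the muscles did not overlap for 6 of the 9 genes, against 64.9% of all tested genes. Log2 differences of single genes are given as soleus minus pectoralis major, on log2(FPKM + 1) in the main test. Their median was -1.83 for the 9 genes, -2.38 for the 4 breakdown genes, -0.16 for the 4 synthesis genes and 0.26 for all tested genes. These medians depend on how genes were assigned. All breakdown genes but PYGL encode subunits of the same enzyme, phosphorylase kinase. PPP1R3A and PPP1R3C were counted under synthesis, whereas the other targeting subunits were listed under regulation. In whole muscle, fewer cells of a type and less RNA per cell cannot be told apart.

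**Figure D1:**
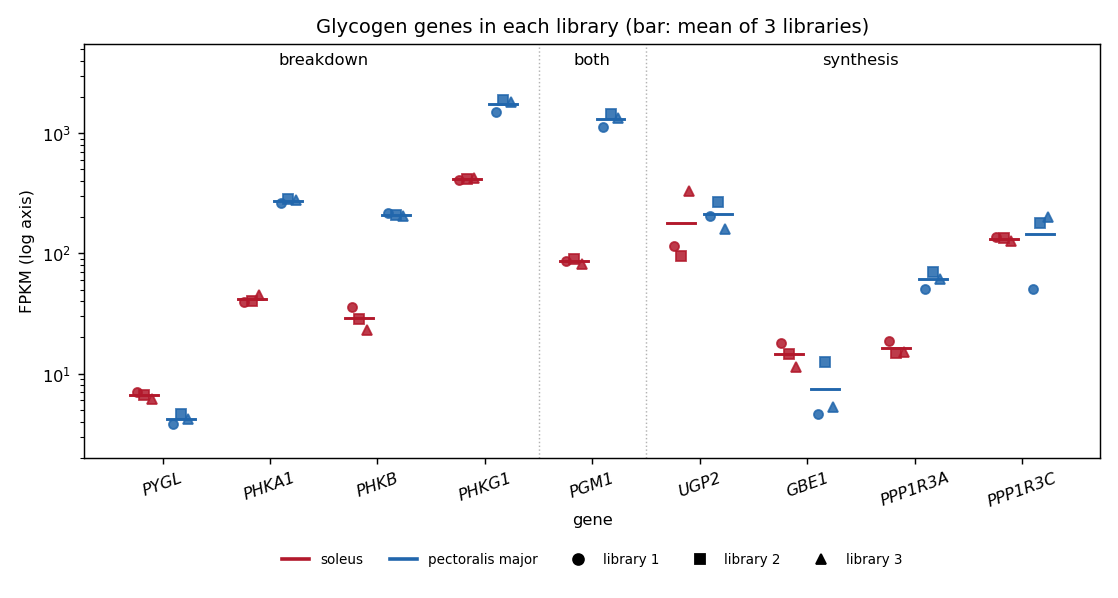
FPKM (log axis) of the 9 glycogen genes in each library, with soleus in red and pectoralis major in blue, a symbol per library number and a bar at the mean of 3 libraries. The phosphorylase kinase genes, PGM1 and PPP1R3A lie lower in every soleus library, while UGP2, GBE1 and PPP1R3C overlap through soleus library 3, pectoralis major library 2 and pectoralis major library 1.

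The 3 phosphorylase kinase subunit genes were all lower in soleus, by 4.19-fold to 7.19-fold on the means. PHKG1, the muscle form of the catalytic subunit (gene number 417543), stood at 407, 414 and 420 FPKM in soleus libraries 1 to 3, against 1496, 1882 and 1820 FPKM in pectoralis major libraries 1 to 3. Its soleus libraries lay close together and far below the lowest pectoralis major library. The difference on the log2 scale was -2.06 ± 0.12 (SE, n = 3 libraries per muscle; limma adjusted p = 7.76e-06).

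PHKA1, the muscle form of the alpha subunit (gene number 422181), which restrains the catalytic subunit until it is phosphorylated, had 39.7, 40.1 and 44.9 FPKM in soleus and 263, 284 and 276 FPKM in pectoralis major. The groups were far apart and the spread within each was narrow (41.6 ± 2.95 and 274 ± 10.7, SD, n = 3 each). This gave a log2 difference of -2.70 ± 0.11 (SE; limma adjusted p = 9.61e-07). PHKB, the other regulatory subunit (gene number 415741), had 36.0, 28.3 and 23.1 FPKM in soleus and 216, 208 and 206 FPKM in pectoralis major. Here the soleus libraries varied more, while the pectoralis major libraries were nearly equal. The log2 difference of PHKB was -2.83 ± 0.16 (SE; limma adjusted p = 5.31e-06).

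PYGL, the liver form of glycogen phosphorylase in mammals (gene number 378909), went the other way at a low level. It had 7.01, 6.61 and 6.16 FPKM in soleus and 3.81, 4.61 and 4.23 FPKM in pectoralis major. All soleus libraries lay above all pectoralis major libraries, by 1.56-fold on the means. A log2 difference of 0.54 ± 0.13 (SE; limma adjusted p = 0.00676) resulted, with a 95% interval of 0.25 to 0.83 whose lower end lies near the median of all tested genes. Under median-ratio scaling it was 0.22 and did not pass (adjusted p = 0.129).

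Several marker lists of other cells were also higher in soleus. Of all 9616 tested genes, 40% passed as higher in soleus as deposited, and 2026 did under median-ratio scaling. All 7 leukocyte genes passed, with a summed level of 993 to 1100 FPKM in soleus and 512 to 653 in pectoralis major, and under median-ratio scaling 6 passed. Most of this sum was CD74, with 880 to 985 FPKM in soleus and 474 to 589 in pectoralis major. All 6 endothelial genes passed (152 to 185 against 75.2 to 92.3 FPKM; 4 passed under median-ratio scaling), as did all 5 adipocyte genes (336 to 417 against 87.9 to 92.1 FPKM; 5). All 5 smooth muscle genes passed (268 to 403 against 141 to 212 FPKM; 3 under median-ratio scaling), but 2 of 5 fibroblast genes did (208 to 316 against 173 to 308 FPKM; 0). Most of the smooth muscle sum was RGS5, with 175 to 245 FPKM in soleus and 104 to 127 in pectoralis major. Of 4 hepatocyte genes in the table, ALB was at most 0.0724 FPKM in any library, FGB at most 0.649 and TTR at most 3.43, while APOA1 had 407 to 974 FPKM. The 3 erythrocyte genes summed to 424 to 1032 FPKM in soleus and 403 to 810 in pectoralis major, and 0 passed with limma as reported, with 0 at an unadjusted p under 0.05 and 0 with voom. With the replicate number as a block, 2 of the 3 erythrocyte genes and 3 of the 5 fibroblast genes passed as higher in soleus. The part of these cells in the higher level of PYGL and GBE1 was not tested.

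PGM1, which converts glucose 1-phosphate and glucose 6-phosphate into each other and so serves both breakdown and synthesis (gene number 424691), differed most. It had 85.6, 89.6 and 82.1 FPKM in soleus and 1122, 1441 and 1345 FPKM in pectoralis major. The soleus libraries were nearly equal and lay 15.2-fold below pectoralis major on the means. Its log2 difference of -3.90 ± 0.13 (SE; limma adjusted p = 1.97e-07) ranked 11 from the lowest among the 9616 tested genes.

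Among the synthesis genes, 1 was lower in soleus, 1 was higher and 2 did not pass. PPP1R3A, the targeting subunit that holds protein phosphatase 1 on glycogen in striated muscle of mammals (gene number 101747406), had 18.8, 15.0 and 15.1 FPKM in soleus and 50.2, 70.6 and 61.2 FPKM in pectoralis major. Every soleus library lay below every pectoralis major library. PPP1R3A had a log2 difference of -1.83 ± 0.16 (SE; limma adjusted p = 5.6e-05).

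GBE1, the branching enzyme (gene number 427964), had 18.0, 14.5 and 11.4 FPKM in soleus and 4.63, 12.4 and 5.29 FPKM in pectoralis major. Pectoralis major library 2 lay above soleus library 3, so the groups overlapped, and pectoralis major libraries 1 and 3 lay far below all of soleus. For GBE1 the log2 difference was 0.98 ± 0.32 (SE; limma adjusted p = 0.0267). The call was lost without soleus library 1 (adjusted p = 0.0967) or 2 (0.0653), without pectoralis major library 1 (0.0830) or 3 (0.0844), under median-ratio scaling (0.63; adjusted p = 0.119) and with no filter on low values (0.0899), and the range over all leave-one-out settings was 0.00122 to 0.0967.

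UGP2, which makes UDP-glucose (gene number 373900), had 114, 94.4 and 329 FPKM in soleus and 204, 267 and 161 FPKM in pectoralis major. Soleus library 3 was higher than every other library, and the other 2 soleus libraries were lower than all of pectoralis major. The log2 difference was -0.43 ± 0.42 (SE; 95% interval -1.38 to 0.52; limma adjusted p = 0.401). Without soleus library 3 it was -0.98 and passed (adjusted p = 0.00886). The coefficient of variation of UGP2 in soleus was 72.6%, and 0.182% of 2740 genes with a mean of at least 10 FPKM in both muscles had a larger one there, the median being 10.2%.

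PPP1R3C, a more widely expressed targeting subunit known in mammals as protein targeting to glycogen (gene number 425328), had 136, 135 and 127 FPKM in soleus and 50.6, 180 and 200 FPKM in pectoralis major. The soleus libraries were nearly equal, whereas pectoralis major library 1 lay below and libraries 2 and 3 above all of them. The log2 difference was 0.11 ± 0.44 (SE; 95% interval -0.89 to 1.12; limma adjusted p = 0.839). The mean FPKM was lower in soleus (133 against 144), so the sign differed between the scales. Without pectoralis major library 1 the log2 difference was -0.51 and passed as lower in soleus (adjusted p = 0.0122). Under median-ratio scaling it was -0.27 (adjusted p = 0.623). The coefficient of variation in pectoralis major was 56.6%, and 1.24% of the same 2740 genes had a larger one, the median being 13.3%.

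**Figure D2:**
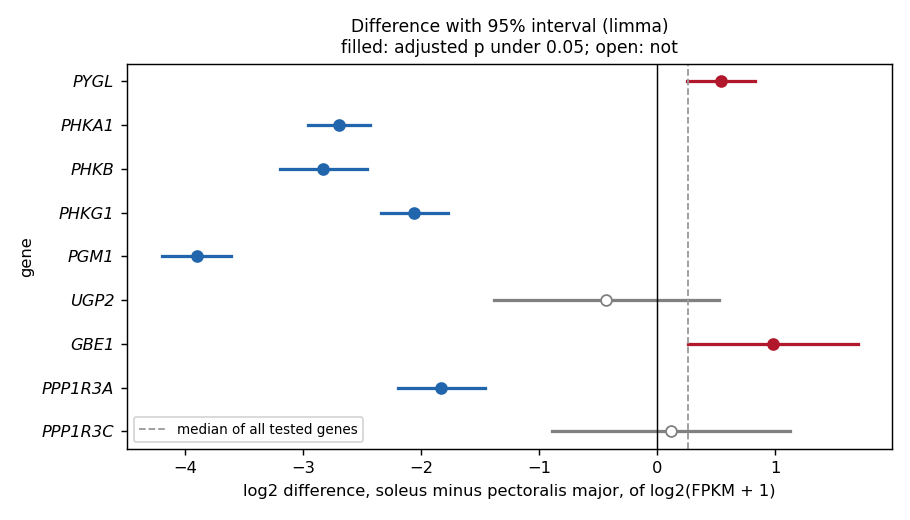
Log2 difference of each gene, soleus minus pectoralis major, of log2(FPKM + 1), with the 95% interval from limma; filled points passed at an adjusted p of 0.05 and open points did not, and the dashed line is the median of all tested genes (0.26). The intervals of PGM1 and the phosphorylase kinase genes lie far below 0, those of UGP2 and PPP1R3C are wide and hold 0, and those of PYGL and GBE1 begin near the dashed line.

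In FPKM, PHKG1 had the highest level and PYGL the lowest in both muscles, while PGM1 changed its place in the order. This order rests on the length used for each gene, which was 1315 bases for PHKG1 and 6876 for PGM1. In fragments, PGM1 stood above PHKG1 in every library of both muscles. The ranges were 280105 to 367463 against 71414 to 91795 in pectoralis major, and 22025 to 24075 against 20641 to 21561 in soleus. In soleus the means ran from PHKG1 (414 FPKM) over UGP2 (179), PPP1R3C (133), PGM1 (85.8), PHKA1 (41.6), PHKB (29.2), PPP1R3A (16.3) and GBE1 (14.6) to PYGL (6.59). Of the neighbours in this order, UGP2 and PPP1R3C overlapped between libraries, as did PPP1R3A and GBE1. In pectoralis major PGM1 came second (1303 FPKM) after PHKG1 (1733) and before PHKA1 (274), UGP2 (210), PHKB (210), PPP1R3C (144), PPP1R3A (60.7), GBE1 (7.45) and PYGL (4.22). There PHKA1 overlapped with UGP2, UGP2 with PHKB, and PPP1R3C with PPP1R3A. Among all genes of the table by mean FPKM, PHKG1 ranked 196 in soleus and 37 in pectoralis major, and PGM1 598 and 46.

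Ratios within a library do not depend on how the library was scaled, and 6 were compared, on FPKM without the added 1. The test was the exact permutation test, two-sided, for which 3 against 3 libraries cannot go below p = 0.1. The catalytic subunit gene stood higher against the regulatory ones in soleus. PHKG1 was 10.3, 10.3 and 9.34 times the level of PHKA1 in soleus and 5.68, 6.62 and 6.60 times in pectoralis major, with no overlap (difference of the mean log2 ratios 0.67; exact p = 0.1, adjusted p = 0.15). Against PHKB it was 11.3, 14.6 and 18.2 times in soleus and 6.92, 9.06 and 8.84 times in pectoralis major (0.81; exact p = 0.1, adjusted p = 0.15). The ratio of PHKB to PHKA1 overlapped, with 0.909, 0.708 and 0.515 in soleus and 0.821, 0.731 and 0.746 in pectoralis major (-0.15; exact p = 0.7, adjusted p = 0.7), and without soleus library 3 the difference turned to 0.07.

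The targeting subunits also stood in different proportion. PPP1R3C was 7.23, 8.97 and 8.43 times the level of PPP1R3A in soleus and 1.01, 2.54 and 3.28 times in pectoralis major, so the groups did not overlap although PPP1R3C itself did (2.01; exact p = 0.1, adjusted p = 0.15). UGP2 was 1.34, 1.05 and 4.01 times the level of PGM1 in soleus but 0.182, 0.185 and 0.119 times in pectoralis major, again with no overlap (3.48; exact p = 0.1, adjusted p = 0.15; 2.90 without soleus library 3). GBE1 was 2.57, 2.20 and 1.85 times the level of PYGL in soleus and 1.22, 2.70 and 1.25 times in pectoralis major, where library 2 lay above all of soleus (0.45; exact p = 0.4, adjusted p = 0.48). The difference of this ratio was 0.83 without pectoralis major library 2, 0.25 without library 1 and 0.27 without library 3 of that muscle. None of these ratios is independent of the results per gene. The denominators PHKA1, PHKB, PPP1R3A, PYGL and PGM1 did not overlap between the muscles on their own (log2 difference -2.70, -2.83, -1.83, 0.54 and -3.90). With UGP2 between 94.4 and 329 FPKM in all libraries, its ratio to PGM1 could not overlap.

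**Figure D3:**
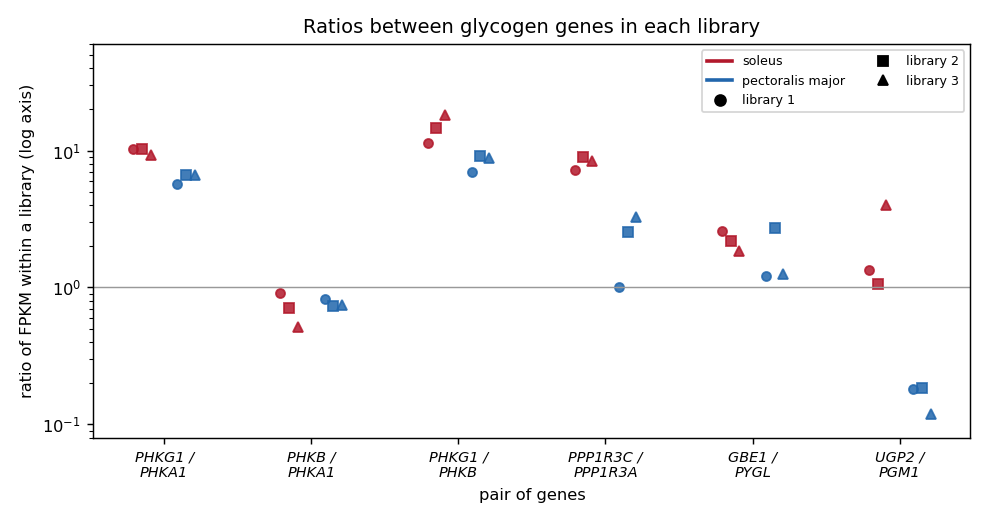
Ratio of FPKM of 2 genes within each library (log axis), with soleus in red, pectoralis major in blue and a symbol per library number. PHKG1 over PHKA1, PHKG1 over PHKB, PPP1R3C over PPP1R3A and UGP2 over PGM1 are higher in every soleus library, and PHKB over PHKA1 and GBE1 over PYGL overlap.

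The profiles of the 9 genes over the 6 libraries were compared by the root mean square difference of log2(FPKM + 1), each centred on its own mean. The nearest pair was PHKG1 and PPP1R3A (0.169), followed by PHKA1 and PHKB (0.245), PHKA1 and PHKG1 (0.331) and PYGL and GBE1 (0.423), and the farthest was GBE1 and PGM1 (2.47). Among all tested genes that carry a proper symbol, those nearest to PGM1 were LDHA, the muscle lactate dehydrogenase (0.258), and PGK2 (0.293). Those nearest to PHKB were PFKM, the muscle phosphofructokinase (0.138), and AK1, adenylate kinase (0.147). For PHKG1 they were ABAT (0.0838) and PPP1R2, an inhibitor of protein phosphatase 1 (0.0890), and for PPP1R3A they were HOXA6 (0.0977) and PPP1R3D (0.0998). SIM2 (0.104) and AGXT2 (0.119) were nearest to PHKA1, AEBP2 (0.0297) and NDST2 (0.0346) to PYGL, and IL15 (0.119) and NEXN (0.133) to GBE1. APOD (0.385) and CTU2 (0.396) were nearest to UGP2, the largest such distances among the 9 genes, and GLRX (0.230) and P4HA3 (0.255) to PPP1R3C. Such distances rest on 6 libraries that differ mainly by muscle, and low genes are drawn together by the added 1. SIM2 (mean 0.0186 FPKM in soleus and 6.27 in pectoralis major), AGXT2 (0.00298 and 6.30) and ABAT (0.198 and 3.62) were nearly absent from soleus. Their fold differences on FPKM were much larger than those of PHKA1 and PHKG1, to which they stood nearest.

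Of 40 other symbols of the pathway, 31 were in the table and 28 passed the filter on low values. Of these 28, 14 were lower in soleus and 10 higher (median log2 difference -0.34), against the 17.4% and 40% of all tested genes, and 10 were at least 2-fold lower and 4 at least 2-fold higher. Under median-ratio scaling 14 were lower and 6 higher, while of all 9616 tested genes 2837 were lower and 2026 higher under that scaling.

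Other breakdown genes were mostly lower, with 4 of 6 tested lower and 1 higher. CALM2, a calmodulin gene whose product is the calcium-binding subunit of phosphorylase kinase among its many roles, was lower (-1.79). STBD1, a glycogen-binding protein linked in mammals to the delivery of glycogen to lysosomes, averaged 96.8 ± 31.4 FPKM for soleus and 887 ± 203 for pectoralis major (SD, n = 3 each; log2 difference -3.20). The adjusted p of CALM2 and STBD1 was at most 5.16e-05 (limma). PYGB, the brain form of phosphorylase in mammals, was higher like PYGL, with 4.63 ± 0.380 against 1.93 ± 0.390 FPKM (0.95; limma adjusted p = 0.000810); it is named after its values were seen. GAA, the lysosomal glucosidase, had 1.79 ± 0.512 and 1.41 ± 0.195 FPKM and did not pass.

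PHKA2, the liver form of the alpha subunit in mammals, did not pass the filter, having 0.917, 0.929 and 0.981 FPKM in soleus and 0.347, 0.366 and 0.359 FPKM in pectoralis major. Its levels did not overlap and ran opposite to those of PHKA1, and with no filter its log2 difference was 0.52 (limma adjusted p = 0.00215). It is also named after its values were seen.

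Of 4 other genes listed under synthesis and tested, 2 were lower and 2 higher. All but GYG1 are relatives of phosphoglucomutase, so this split depends on how genes were assigned. GYG1, the glycogenin primer and most abundant of them, averaged 58.5 ± 7.35 FPKM for soleus and 85.7 ± 20.5 for pectoralis major (log2 difference -0.53; limma adjusted p = 0.0337), a call lost without soleus library 1 (adjusted p = 0.0932) or 3 (0.104), without pectoralis major library 2 (0.0840), with no filter (0.0779) and with mitochondrially encoded genes out of the totals (0.145). The phosphoglucomutase relatives were split. PGM2L1, which makes glucose 1,6-bisphosphate, the cofactor of PGM1, was lower like PGM1, with 3.05 ± 0.541 against 24.6 ± 2.67 FPKM (-2.67; limma adjusted p = 4.61e-06). PGM5, a relative found at cell adhesion sites in mammals and without known phosphoglucomutase activity, was higher in soleus, with 17.6 ± 3.05 against 1.85 ± 0.482 FPKM (2.71; limma adjusted p = 1.08e-05).

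Of 18 regulatory genes tested, 8 were lower in soleus and 7 higher. The catalytic subunits of protein phosphatase 1 were split: PPP1CA, the most abundant gene of this list, averaged 182 ± 8.79 FPKM for soleus and 516 ± 20.9 for pectoralis major (-1.50) and PPP1CC was lower too (-1.01), whereas PPP1CB was higher, with 149 ± 11.0 against 54.6 ± 0.291 FPKM (1.43). The inhibitors of this phosphatase, PPP1R1A (-2.79) and PPP1R2 (-2.10), were lower. Of the other glycogen-targeting subunits, PPP1R3D (-1.75) was lower like PPP1R3A, PPP1R3B, which is the liver form in mammals, was higher (9.45 ± 3.35 against 1.36 ± 0.106 FPKM; 2.10), and PPP1R3G had 4.92 ± 0.984 and 5.57 ± 1.13 FPKM and did not pass. PRKAR2B, a regulatory subunit of the cyclic AMP-dependent kinase that acts on phosphorylase kinase, was higher (5.45 ± 0.827 against 0.580 ± 0.149 FPKM; 2.03). Of the other subunits of this kinase tested, PRKAR1A was higher (0.57), PRKAR2A was lower (-0.58) and PRKACB did not pass, all named after their values were seen. EPM2A (-0.75) and NHLRC1 (-0.95), which encode laforin and malin, proteins that guard against abnormal glycogen in mammals, were lower, and are named after their values were seen. Adjusted p-values of the genes in this paragraph that passed were at most 0.0114 (limma). The directions and calls of PGM2L1, PGM5, CALM2, STBD1, PYGB and the regulatory genes named as passing held in every setting that tested them. PRKAR1A and PRKAR2A were not followed over the settings and are left out of this statement.

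**Figure D4:**
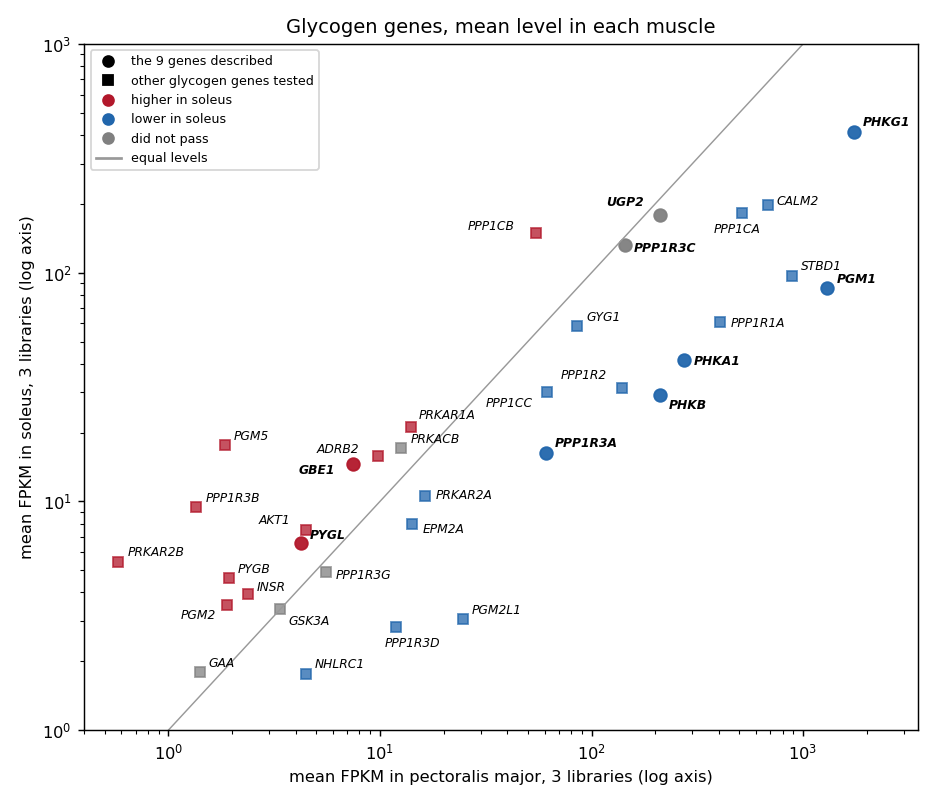
Mean FPKM in pectoralis major (x) and soleus (y) of the 9 glycogen genes (circles) and other glycogen genes tested (squares), both axes log, with the line of equal levels; red genes were called higher and blue genes lower in soleus, and grey genes did not pass. Most genes above 50 FPKM in pectoralis major lie below the line, with PPP1CB above it and UGP2 and PPP1R3C close to it, and the genes higher in soleus lie mostly below 20 FPKM in both muscles.

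**Figure D5:**
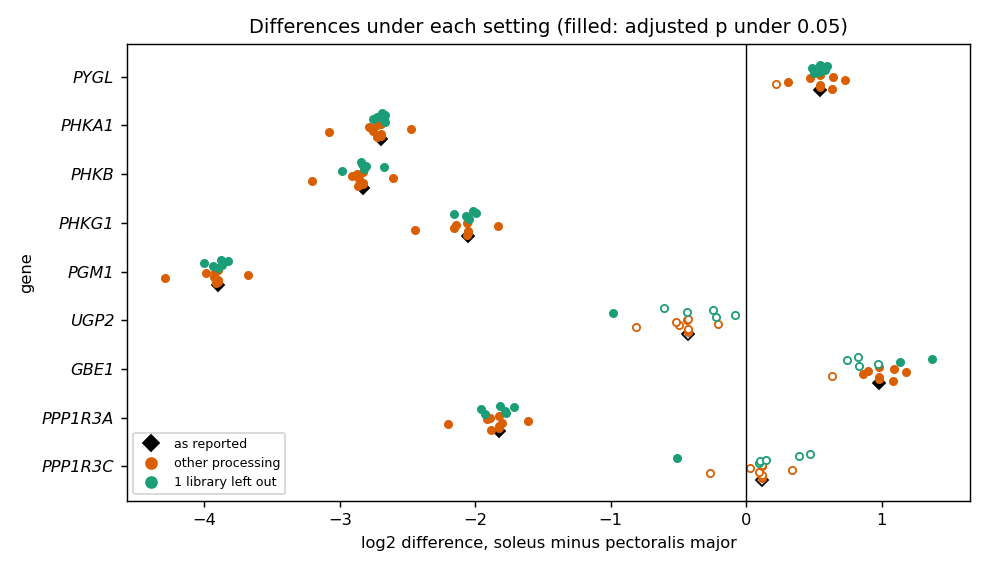
Log2 difference of each of the 9 genes as reported (black diamond), under other processing (orange; for voom on log2 fragments scaled by library total) and with 1 library left out (green), filled where the adjusted p was under 0.05. The 5 genes lower in soleus stay filled and below -1.6 throughout, while GBE1, UGP2 and PPP1R3C change between filled and open with single libraries.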

How the data were processed

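The authors deposited 1 table of FPKM values for all 6 libraries, with gene numbers and symbols, per the file headers. Per the submitters' processing notes, the tools were HISAT2, HTSeq, Cufflinks and R 3.2.0 on build GRCg6a; their roles and the use of strand are not given in these sources, so reads of overlapping genes cannot be told apart. Every one of the 18239 gene numbers was found in a RefSeq gene list of GRCg7b, which is another build, and coordinates were therefore left out. Dates stood in place of 10 symbols, which were looked up by gene number.

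Whole fragments were recovered from the ratios of FPKM between libraries within each gene, and 100% of the 94897 nonzero values came out whole (relative tolerance 1e-06). The total of soleus library 1 is the common divisor over genes. The other totals are that value times a relative depth, taken from the most frequent ratio of values between libraries. Counting error is that of the fragments given and covers counting only.

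The main test was limma 3.58.1 (variance trend) in R 4.3.3 on log2(FPKM + 1), a scale that understates the change of low genes, keeping genes that reached 1 FPKM in 3 or more libraries, fitted and adjusted over the whole table. All 9 genes passed this filter. Python 3.11.15, numpy 2.4.6, pandas 2.3.3 and matplotlib 3.10.9 served for tables and figures. The scripts were tested on simulated data. The 9 genes and all gene lists were chosen with earlier results of these data known. The rule named the 9 genes, called genes of the other glycogen lists with at least a 2-fold difference, the most abundant gene of each of these lists, and for each of the 9 the 2 genes of nearest profile. Some genes that this rule names are not reported here, though the counts over lists include them.

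Alternatives were a pseudocount of 0.1, no filter, a mean FPKM of at least 5, median-ratio scaling, quantile normalization, totals without mitochondrially encoded genes or without the 50 most abundant genes, voom on fragments, the replicate number as a block, and leaving out each library. Same-numbered libraries of the muscles deviated together from their group means (Pearson's r over tested genes 0.398, 0.445 and 0.367 for numbers 1 to 3, and -0.301 to -0.128 for different numbers). The negative values are partly forced, since deviations from a group mean cancel out within a muscle. The numbers were taken to pair the libraries in the block setting only. The main test and the exact test of ratios treated the libraries as unpaired. This pairing comes from the data, since the labels give the numbers but not what they mark.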

Additional observations from a re-analysis of the deposited data

How the results depend on the processing

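PGM1, PHKA1, PHKB, PHKG1 and PPP1R3A kept their direction and call in all 15 settings other than the reported one, with ranges of -4.29 to -3.68 (PGM1), -3.08 to -2.47 (PHKA1), -3.21 to -2.61 (PHKB), -2.44 to -1.83 (PHKG1) and -2.20 to -1.61 (PPP1R3A). The count of genes lower in soleus was 5 as reported and 5 to 6 with a library left out, being 6 without soleus library 3 (UGP2 passing) and without pectoralis major library 1 (PPP1R3C passing), and 5 in the remaining settings. The count of those higher was 2 as reported, 1 with no filter (GBE1 0.98, not passing) and 0 under median-ratio scaling (PYGL 0.22, GBE1 0.63, PPP1R3C -0.27), and 1 to 2 with a library left out. With a library left out, GBE1 ranged from 0.74 to 1.37, UGP2 from -0.98 to -0.086, PPP1R3C from -0.51 to 0.47 and the log2 ratio of PHKB to PHKA1 from -0.34 to 0.068. Of the other glycogen genes, 10 were higher as reported and 6 when a mean of 5 FPKM was required, which tests fewer genes, or under median-ratio scaling. Of all 9616 tested genes, 3844 were higher as reported and 2026 under median-ratio scaling. The replicate block changed no call among the 9 genes; GBE1 had an adjusted p of 0.00507 there, UGP2 0.310 and PPP1R3C 0.762. Why single libraries differed in UGP2, GBE1 and PPP1R3C was not tested. PYGL, with 471 to 920 fragments per library, and GBE1, with 778 to 3210, were the genes of lowest depth.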
